A study of Sus scrofa with 5 samples.

Results

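The alpha subunits of the voltage-gated sodium channels were followed in single-nucleus RNA-seq of pig dorsal root ganglia. The 8 genes SCN1A, SCN2A, SCN3A, SCN7A, SCN8A, SCN9A, SCN10A and SCN11A were taken by symbol from the 30477 rows of the count table, and all 8 had a row. They held 43124 of the 17277376 unique molecular identifiers (UMIs, each standing for a captured RNA molecule). Their levels and co-detection were compared between nuclei grouped by 8 marker genes.

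An alpha subunit is the large membrane protein that forms the sodium-conducting pore and opens on depolarization, so it carries the upstroke of the action potential. Sensory neurons mix channels that are blocked by the toxin tetrodotoxin (SCN1A, SCN2A, SCN3A, SCN8A and SCN9A, encoding Nav1.1, Nav1.2, Nav1.3, Nav1.6 and Nav1.7) with the resistant channels Nav1.8 (SCN10A) and Nav1.9 (SCN11A), which are known from nociceptors. SCN7A encodes Nax, a relative that senses extracellular sodium rather than voltage and is also known from Schwann cells and fibroblasts.

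The ganglia came from the thoracic and lumbar spine of 5 male Landrace pigs, which formed 1 group with no treatment, no altered gene and no stated age. Nuclei were freed from 80 mg of tissue per sample with either of 2 detergents and separated from debris by a density gradient or by magnetic or fluorescence-activated selection for the neuronal protein NeuN, so the nuclei are those such a selection keeps. The table held 2189 nuclei in 6 libraries, told apart by the ending of the barcode and sharing 0 barcodes. No label or header linked a library with a pig or an isolation method. The table was therefore 1 pooled sample, no test between pigs was possible, and a library is read here only as a technical batch.

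Depth and quality differed between the libraries. Library totals ran from 760816 to 4910023 UMIs, and the median nucleus held from 676 UMIs in library 2 to 12038 in library 6. Library 2 had 13 nuclei and gave no value of its own. Median mitochondrial shares were 18.5% in library 3 and 4.08% in library 1, against 0.114% and 0.0605% in libraries 5 and 6. RNA of other cells was uneven too: within the TRPM8 group, 4 satellite glia markers (APOE, FABP7, GLUL and KCNJ10) summed to 3187 counts per 1000000 UMIs (CPM) in library 1 and to 113 CPM in library 6. No doublet caller was run, and 30 nuclei above 50000 UMIs held 16.8% of all UMIs.

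Clusters of nuclei, found without the 8 genes, joined the group of the marker that stood highest in them. The groups were TRPM8 (the cold-gated channel, 419 nuclei), IL31RA (a receptor subunit for the itch cytokine interleukin 31, 191 nuclei), GFRA2 (the neurturin co-receptor, 234 nuclei), ADCYAP1 (the neuropeptide PACAP, 560 nuclei), KIT (the stem cell factor receptor, 199 nuclei), NTRK2 (the BDNF receptor, 112 nuclei), NTRK3 (the neurotrophin-3 receptor, 165 nuclei) and PVALB (the calcium-binding protein parvalbumin, known from proprioceptors, 209 nuclei). One cluster of 100 nuclei, with UNC5D, TOX3 and TRPV1 among its leading genes, reached the marker score for none of the 8 and stayed outside the groups. The pan-neuronal markers RBFOX3, SNAP25, SYT1, UCHL1 and NEFL were above 0 in every group. So were the 4 satellite glia markers, so being above 0 does not tell neurons from other cells. RBFOX3 ran from 16.1 CPM in the PVALB group to 336 CPM in the GFRA2 group. The groups are called by their marker, since some other markers of the matching cell types were absent or shared: PENK stood at 0 CPM in the TRPM8 group, and TAC1 stood at 4192 CPM in the IL31RA group and 2528 CPM in the ADCYAP1 group. Median depth ran from 1726 UMIs per nucleus in the TRPM8 group to 7969.5 in the GFRA2 group. Of the 112 NTRK2 nuclei, 95 came from library 3, so values of that group rest mostly on that library.

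Several of these genes are neighbours in the genome. In RefSeq's annotation of Sscrofa11.1, the build named in the submitters' processing notes, SCN10A (chr13:23481537-23570454) and SCN11A (chr13:23602378-23692281) lay 31923 bases apart. SCN3A (chr15:71717330-71824190), SCN1A (chr15:72529866-72696715), SCN9A (chr15:72745706-72912352) and SCN7A (chr15:72946147-73026656) shared a stretch of chromosome 15, and SCN8A lay alone on chromosome 5 (chr5:16977468-17173831). Whole genes are given here. Long noncoding RNA genes overlapped SCN9A (3 of them), SCN1A (1) and SCN10A (1). No source used here says whether the counting used strand, so reads of such overlaps cannot be told apart. Intervals below are exact, at 95%, and cover counting error only. Levels are compared between groups for a given gene, never between genes.

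SCN10A, the Nav1.8 channel that carries much of the action potential upstroke in nociceptors, was high in 4 groups and low in the other 4. It stood at 797 CPM in the GFRA2 group, 781 in the KIT group, 725 in the ADCYAP1 group and 701 in the IL31RA group. The TRPM8 group held 139.7 CPM, the NTRK3 group 77.3, the NTRK2 group 43.7 and the PVALB group 37.2. The highest group exceeded the lowest 21.4-fold (interval 16.6 to 28.2).

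The 4 high groups did not keep a common order of SCN10A across libraries. In the IL31RA group the level was 478, 597, 1148 and 1478 CPM in libraries 1, 3, 5 and 6. The GFRA2 group held 298, 613, 1132 and 1224 CPM in the same libraries, and the KIT group 636, 512, 814 and 1028 CPM. In the ADCYAP1 group the values were 412, 526, 455, 796 and 889.8 CPM in libraries 1, 3, 4, 5 and 6. Library 6 was the highest in all 4 of these groups, and the ranges of the 4 groups overlapped throughout. Pooled over libraries the IL31RA group came after the ADCYAP1 group, but within libraries it was higher in 4 of 4.

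The TRPM8 group was the lowest of the 5 groups present in libraries 1, 3, 5 and 6 for SCN10A in 4 of 4 libraries, at 244, 42.2, 177 and 65.9 CPM. Against all other nuclei its SCN10A ratio was 0.26 (0.224 to 0.299). Library 1 supplied 297 of the 419 nuclei, at a median of 1437 UMIs each, and there the markers of satellite glia summed to 3187 CPM and those of Schwann cells to 759 CPM. Their part in the higher SCN10A of library 1 was not tested, and without library 1 the log2 ratio fell from -1.94 to -3.01. In the NTRK3 group SCN10A was 18.9, 79.6, 83.8 and 96.1 CPM in libraries 3, 4, 5 and 6, all below every library of the 4 high groups. One nucleus gave 34.0% of the SCN10A UMIs of the NTRK3 group. In the PVALB group the values were 46.6, 20.7 and 12.4 CPM in libraries 1, 3 and 4, and library 3 of the NTRK2 group held 45.1 CPM. The interval of that NTRK2 value overlapped that of the TRPM8 group in library 3, at 42.2 CPM. No other library had values of both groups, so their pooled order was not seen within a library.

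SCN11A, the Nav1.9 channel that sets a persistent current near the resting potential, peaked in the IL31RA group at 1024 CPM. The GFRA2 group followed at 391 CPM, the ADCYAP1 group at 284 and the KIT group at 259, the last 2 of which did not differ beyond counting error. Lower levels were found in the TRPM8 group (108 CPM), the NTRK2 group (73.5), the PVALB group (57.7) and the NTRK3 group (15.7). From the highest to the lowest group the ratio was 65.4 (45.9 to 96.5).

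Within libraries the IL31RA group stood apart for SCN11A. Its level was 1007, 646, 1040 and 1169 CPM in libraries 1, 3, 5 and 6. The next group, GFRA2, held 296, 339, 475 and 412 CPM, so the lowest IL31RA library lay above the highest GFRA2 library. The ADCYAP1 group ranged from 172 to 353 CPM over 5 libraries and the KIT group from 171 to 352 CPM over 4, and these overlapped. IL31RA nuclei were first of the 5 shared groups in 4 of 4 libraries. One nucleus gave 23.0% of the SCN11A UMIs of that group, and without nuclei above 50000 UMIs the level was 919 CPM.

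At the low end of SCN11A the TRPM8 group split by library. Library 1 held 226 CPM, against 32.4, 57.03 and 34.5 CPM in libraries 3, 5 and 6. The pooled ratio of 0.344 (0.291 to 0.404) therefore mixes 2 levels, and without library 1 the log2 ratio moved from -1.54 to -3.12. Giving every nucleus the same weight ended that call at a log2 ratio of -0.40, as did thinning to 1000 UMIs at -0.55. The NTRK3 group was low in every library, at 7.58, 1.53, 39.9 and 20.5 CPM in libraries 3, 4, 5 and 6. The PVALB group held 69.8, 13.8 and 40.2 CPM in libraries 1, 3 and 4.

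**Figure D1:**
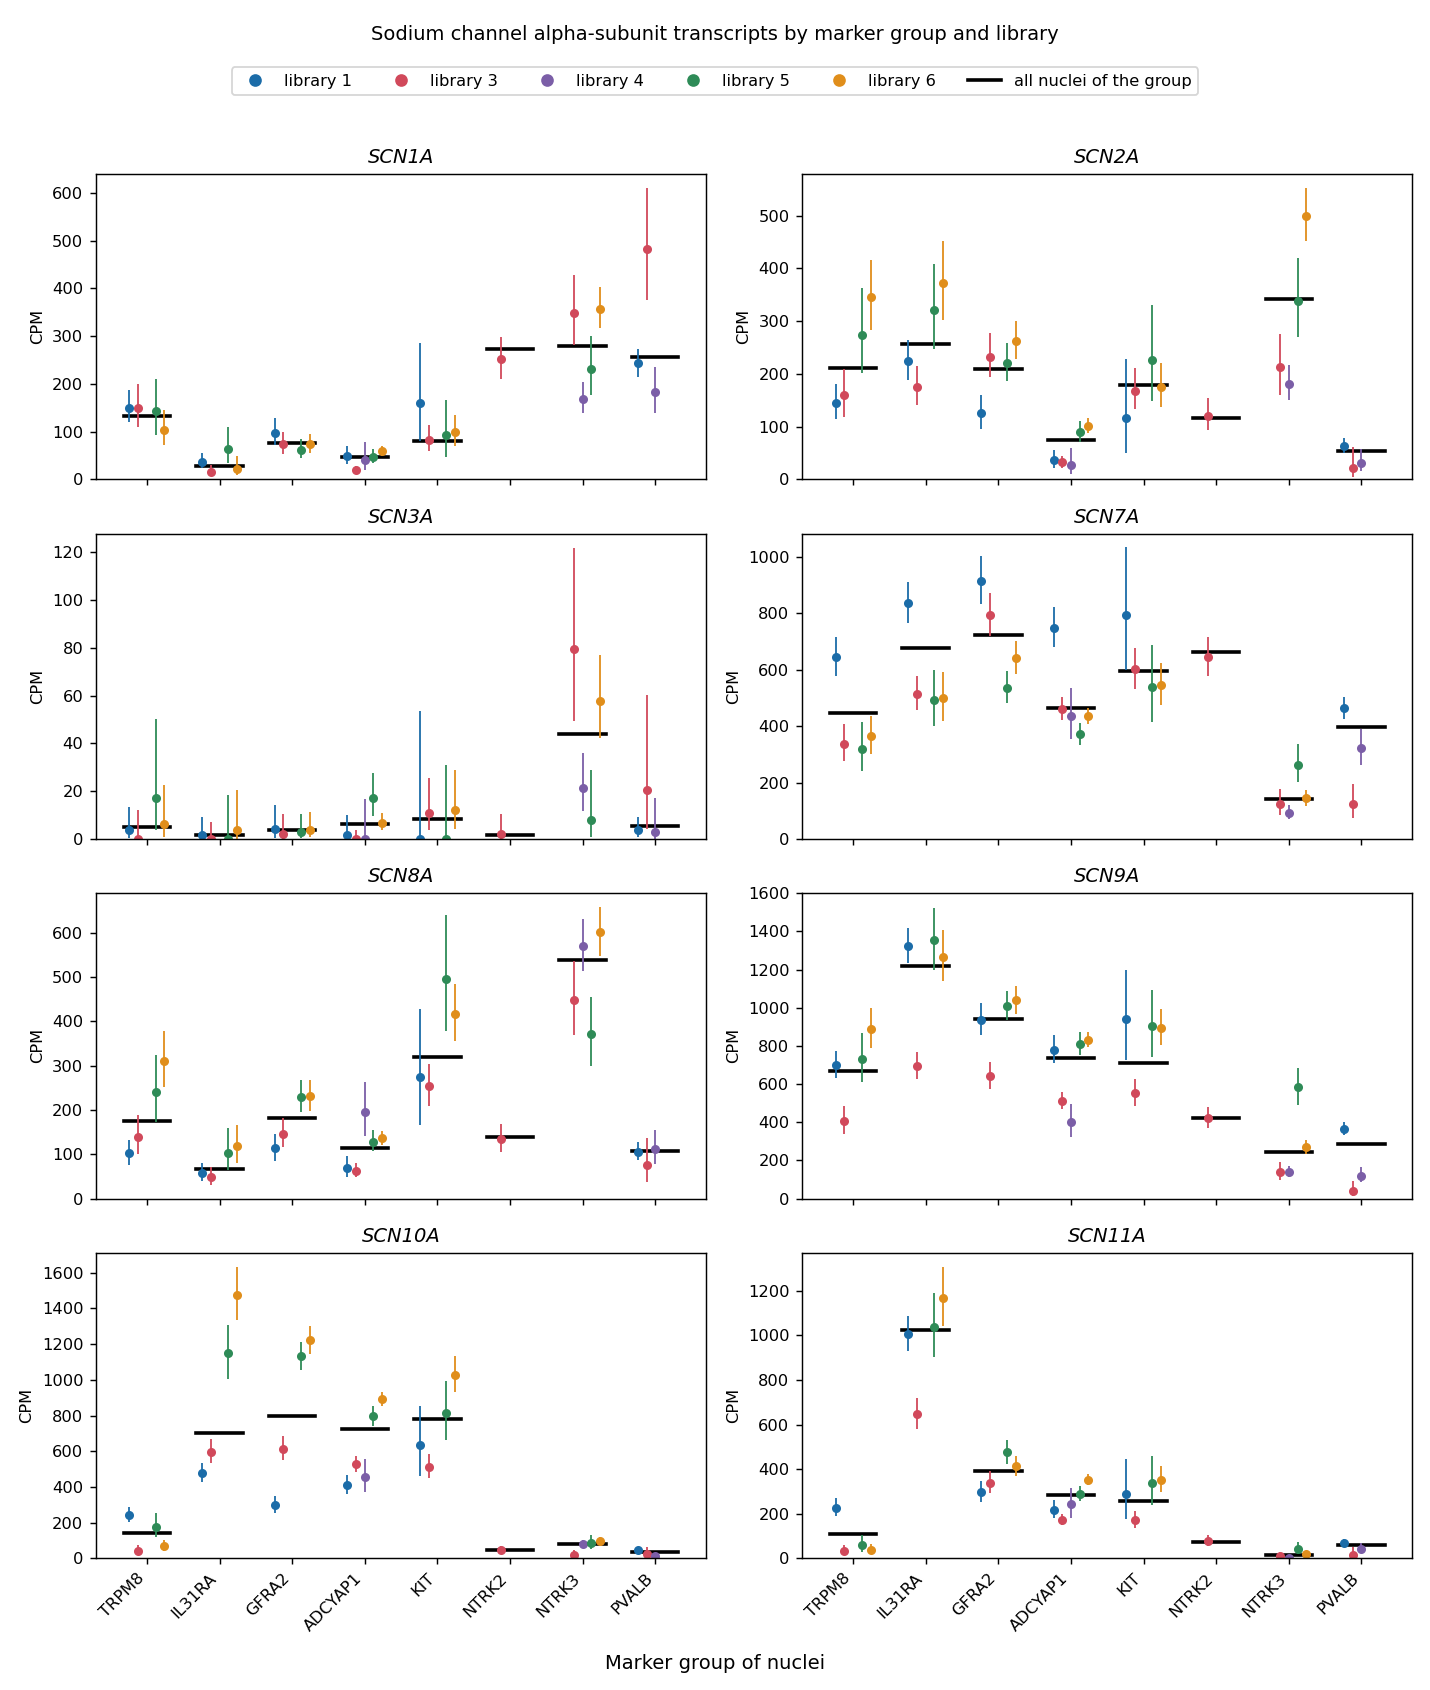
Levels of the 8 sodium channel alpha subunits (CPM, linear axes that start at 0 and differ between panels) in 8 marker groups of nuclei, with a point for each library that held at least 10 nuclei of the group, its exact 95% Poisson interval as a bar, and a black line for all nuclei of the group. The IL31RA points of SCN11A, from 646 to 1169 CPM, lie above all other points of that panel, and the NTRK2, NTRK3 and PVALB points of SCN10A lie below 100 CPM.

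The balance between the 2 resistant channels also differed between groups, a comparison chosen after the levels had been seen. SCN11A made up 59.4% (57.7 to 61.1) of their joint UMIs in the IL31RA group, 32.9% in the GFRA2 group, 28.1% in the ADCYAP1 group and 24.9% in the KIT group. By library the share ran from 44.2% to 67.8% in the IL31RA group and from 25.2% to 49.8% in the GFRA2 group. Library 1 gave the highest share in both, and within each of the 4 shared libraries the IL31RA share was above the GFRA2 share. In the TRPM8 group the share was 43.7% (38.4 to 49.1) of 350 UMIs. SCN11A was also the larger part in the PVALB group, at 93 UMIs against 60 of SCN10A, and in the NTRK2 group, at 42 against 25. A split towards SCN11A was therefore not particular to the IL31RA group. The NTRK3 group held 31 SCN11A and 153 SCN10A UMIs. In the PVALB, NTRK2 and NTRK3 groups the split rested on few UMIs.

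**Figure D2:**
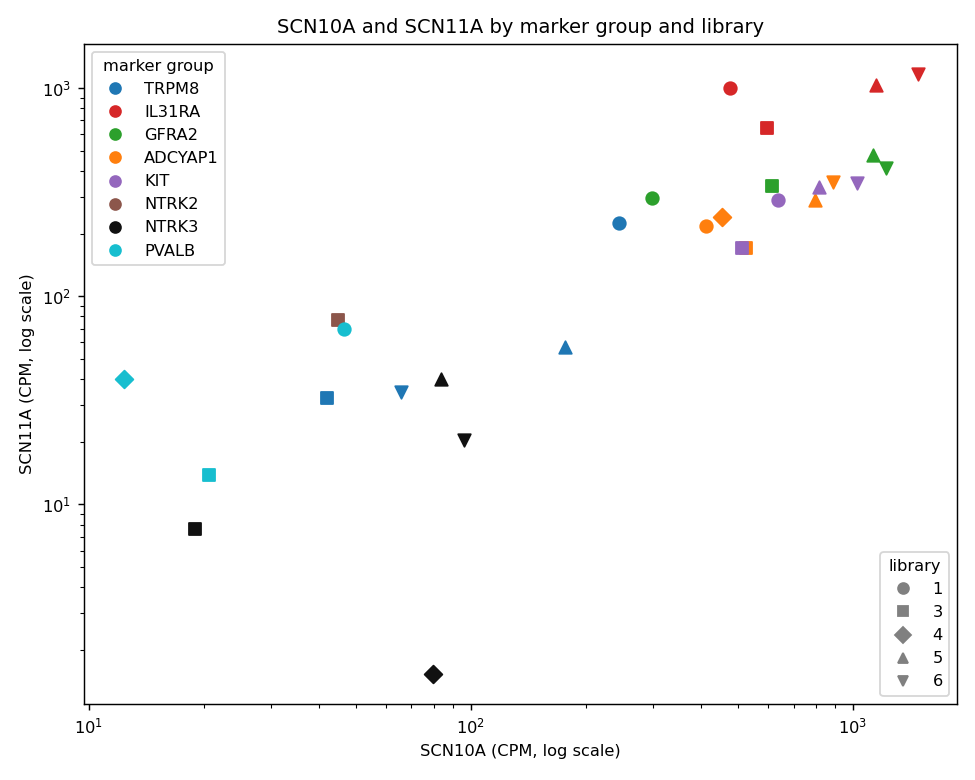
SCN10A against SCN11A (CPM, both axes logarithmic), with a point for each marker group within a library of at least 10 nuclei; colour gives the group and shape the library. The 4 IL31RA points lie highest on the SCN11A axis, 1 of them, at 1478 CPM, also beyond all other points on the SCN10A axis, and the NTRK3 point of library 4 is the lowest at 1.53 CPM of SCN11A.

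SCN9A, the Nav1.7 channel that amplifies small depolarizations and whose loss abolishes pain in people, was present in every group and varied less than SCN10A or SCN11A. It was highest in the IL31RA group at 1221 CPM, ahead of the GFRA2 group at 943, the ADCYAP1 group at 737.5, the KIT group at 709.6 and the TRPM8 group at 668 CPM. The pooled ADCYAP1 and KIT levels did not differ beyond counting error, and within libraries the KIT group was higher in 4 of 4. The NTRK2, PVALB and NTRK3 groups held 423, 283 and 245 CPM. The ratio of highest to lowest was 4.99 (4.52 to 5.51). The 100 nuclei outside the groups stood at 855 CPM.

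By library, SCN9A in the IL31RA group was 1326, 694, 1355 and 1269 CPM in libraries 1, 3, 5 and 6. It was the first of the 5 shared groups in 4 of 4 libraries. In the NTRK3 group the values were 140.2, 138, 582 and 269 CPM in libraries 3, 4, 5 and 6, and in the PVALB group 365, 41.3 and 121 CPM in libraries 1, 3 and 4, so these 2 groups overlapped. Their pooled order was the reverse of that in the 2 libraries they share, and without library 1 the log2 ratio of the PVALB group moved from -1.41 to -2.87. In library 3 SCN9A was 421 CPM in the NTRK2 group and 409 CPM in the TRPM8 group, with overlapping intervals. No other library had values of both the NTRK2 and TRPM8 groups.

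Library 3 gave the lowest SCN9A of the 4 shared libraries in all 5 shared groups. Mitochondrial UMIs made up 36.4% of its IL31RA group, against 4.21% in library 1 and less in the others. With those UMIs left out of the total, SCN9A in the IL31RA group of library 3 was 1092 CPM, against 1270 to 1384 CPM in the other libraries, and it remained the lowest.

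SCN1A, the Nav1.1 channel known from myelinated mechanosensory neurons and fast-spiking cells, ran the other way from the resistant channels. It was highest in the NTRK3 group at 279.8 CPM, the NTRK2 group at 273 and the PVALB group at 255 CPM, whose pooled levels did not differ beyond counting error. The TRPM8 group followed at 132 CPM and the KIT, GFRA2 and ADCYAP1 groups at 79.2, 75.3 and 46.5 CPM. The IL31RA group was lowest at 26.8 CPM, so that the NTRK3 group exceeded it 10.4-fold (7.82 to 14.2).

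Over libraries the 3 high groups of SCN1A stayed above the rest when mitochondrial UMIs were kept in the total. In the NTRK3 group the level was 349, 168, 231 and 357 CPM in libraries 3, 4, 5 and 6. The PVALB group held 243, 482 and 182 CPM in libraries 1, 3 and 4, and the NTRK2 group 252 CPM in library 3. In library 3 the PVALB interval (376 to 609) lay above that of the NTRK2 group (211 to 298). The PVALB group was also above the NTRK3 group in 2 of 2 shared libraries, the reverse of the pooled order. The lowest value of the 3 high groups, 168 CPM, lay above the highest of the remaining groups, 159 CPM in the KIT group of library 1. With mitochondrial UMIs left out of the total this split was lost. The TRPM8 group of library 3 then held 212 CPM, above the NTRK3 (168.5 CPM) and PVALB (188 CPM) groups of library 4. Within library 3 the 3 high groups stayed above the TRPM8 group, at 325 to 771 CPM. The TRPM8 group held 149.9, 149 and 143 CPM in libraries 1, 3 and 5 and less, 104 CPM, in library 6, and was above the IL31RA, GFRA2 and ADCYAP1 groups in 4 of 4 libraries. The IL31RA group was lowest of the shared groups in 3 of 4 libraries.

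SCN8A, the Nav1.6 channel of nodes of Ranvier and axon initial segments, was highest in the NTRK3 group at 539 CPM and next in the KIT group at 320.5 CPM. The GFRA2 and TRPM8 groups stood at 182 and 174 CPM, and the NTRK2, ADCYAP1 and PVALB groups at 139.9, 115 and 107 CPM. The IL31RA group had the lowest level at 67.3 CPM, 8.01-fold (6.66 to 9.70) below the NTRK3 group.

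This order of SCN8A held in part within libraries. The NTRK3 group held 447, 571, 371 and 601 CPM in libraries 3, 4, 5 and 6. The KIT group held 275, 254, 495 and 416 CPM in libraries 1, 3, 5 and 6, overlapping the NTRK3 group and exceeding it in library 5. Among the 5 shared groups KIT was first and IL31RA last in 4 of 4 libraries, the latter at 58.1, 48.5, 103 and 118 CPM. The KIT group was itself mixed. Its 3 clusters, of 123, 34 and 42 nuclei, held 291, 68.0 and 459 CPM, the low cluster being one with DCC and B4GALT6 among its leading genes. That low cluster joined the KIT group on a near tie, with a marker score of 2.2661 for KIT and 2.2659 for NTRK2. The NTRK2 group was mixed too, as its clusters of 40 and 72 nuclei held 281 and 105 CPM of SCN8A.

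SCN2A, the Nav1.2 channel better known from central axons, was highest in the NTRK3 group at 342 CPM and in the IL31RA group at 257 CPM. The TRPM8, GFRA2 and KIT groups held 212, 209 and 179 CPM and the NTRK2 group 115 CPM, while the ADCYAP1 group stood at 74.2 and the PVALB group at 53.3 CPM. The highest group exceeded the lowest 6.42-fold (5.12 to 8.13). The pooled order of the ADCYAP1 and PVALB groups held in 1 of the 3 libraries with values of both. The PVALB group was the higher in libraries 1 and 4, at 62.7 and 30.9 CPM, and the lower in library 3, at 20.7 CPM. In the ADCYAP1 group SCN2A was 35.7, 31.98, 27.3, 89.3 and 101 CPM in libraries 1, 3, 4, 5 and 6. It was the lowest of the 5 shared groups in 4 of 4 libraries. In the NTRK3 group the values were 212, 181, 339 and 499.7 CPM in libraries 3, 4, 5 and 6, and the IL31RA group, at 175 to 371 CPM, overlapped them.

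SCN3A, the Nav1.3 channel known from embryonic neurons and from injured sensory neurons, was rare, with 184 UMIs in all. The NTRK3 group held 87 of them, at 43.9 CPM, and the 100 nuclei outside the groups held 24, at 38.6 CPM. All other groups lay between 1.58 and 8.22 CPM. In the NTRK3 group SCN3A was 79.6, 21.4, 7.98 and 57.7 CPM in libraries 3, 4, 5 and 6, so the library 5 value overlapped the other groups. In the IL31RA group 3 UMIs were counted, which leaves the ratio to the NTRK3 group at 27.8 with a wide interval of 9.22 to 138.

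SCN7A, encoding Nax, was found in every group and was lowest in the NTRK3 group when libraries were pooled. The GFRA2 group held 724 CPM, the IL31RA group 678, the NTRK2 group 663 and the KIT group 596, and no neighbours in this order differed beyond counting error. The ADCYAP1, TRPM8 and PVALB groups held 464, 447 and 397 CPM. The NTRK3 group stood at 140.4 CPM, 5.15-fold (4.54 to 5.86) below the GFRA2 group, and at 125, 93.4, 263 and 144 CPM in libraries 3, 4, 5 and 6. The PVALB group was uneven, at 463, 124 and 322 CPM in libraries 1, 3 and 4. In library 3 it was as low as the NTRK3 group, on 18 UMIs, and in library 4 it was above it. Mitochondrial UMIs made up 37.4% of the PVALB group of library 3 and 5.10% of the NTRK3 group. With those left out of the total, SCN7A in library 3 was 198 CPM in the PVALB group and 132 CPM in the NTRK3 group.

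Library 1 gave the highest SCN7A in all 5 shared groups, at 644, 837, 916.5, 749 and 795 CPM in the TRPM8, IL31RA, GFRA2, ADCYAP1 and KIT groups. Library 5 gave the lowest in all 5, from 319 to 537 CPM. With mitochondrial UMIs left out of the total, library 3 was above library 1 in the GFRA2 group, at 986 against 958 CPM. Library 1 stayed highest in the other shared groups, though in the IL31RA group only at 874 CPM against 810 CPM in library 3. Since SCN7A is also known from glia, 4 Schwann cell markers (MBP, PMP22, PRX and SOX10) were summed beside it. None of them was at 0 in any group, and their sum ran from 166 CPM in the KIT group to 613 CPM in the PVALB group. In the same 5 groups the sum was 477 to 924 CPM in library 1 and 85.5 to 189 CPM in library 5. Fibroblast markers summed to 130 to 404 CPM in library 1 and 58.8 to 156 CPM in library 5. Their part in the SCN7A of library 1 was not tested.

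Each gene in each group was then set against all other nuclei, calling a ratio of at least 2, or at most 0.5, whose interval excluded 1. Of 64 such pairs, 7 were called higher and 21 lower. The direction held in every library that gave a value for 7 of the 7 and 18 of the 21, the exceptions being SCN3A in the TRPM8, GFRA2 and PVALB groups. For the 1 higher and 3 lower pairs of the NTRK2 group, only library 3 gave a value. That library supplied 95 of the 112 NTRK2 nuclei, so agreement with the pooled direction says little for those pairs. Since the groups have other nuclei in common and the genes were chosen with earlier results known, the counts are a description, and each is set beside the share of 13304 genes called in that group.

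In the NTRK3 group every one of the 8 genes was called. SCN1A (ratio 3.07), SCN2A (2.32), SCN3A (6.93) and SCN8A (3.70) were higher, where 13.2% of all genes were. SCN7A (0.259), SCN9A (0.317), SCN10A (0.138) and SCN11A (0.0467) were lower, where 18.2% of all genes were. Without library 6 the call of SCN2A was lost, at a log2 ratio of 0.82. The median log2 ratio of the 8 was -0.22, against -0.02 over all genes.

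The PVALB group had SCN1A higher (2.61), where 17.4% of genes were called higher, and SCN2A (0.293), SCN3A (0.4996), SCN9A (0.375), SCN10A (0.0673) and SCN11A (0.178) lower, where 24.6% were called lower. The median was -1.21, against -0.23 over all genes. That group also carried the highest sum of satellite glia markers, 2474 CPM, and a cluster of 20 nuclei led by APOE, all from library 4. Without library 1, which held 139 of the 209 nuclei, the log2 ratios of SCN2A, SCN10A and SCN11A moved from -1.77 to -2.56, from -3.89 to -5.19 and from -2.49 to -3.32. In the NTRK2 group SCN1A (2.54) was higher, beside 7.56% of genes, and SCN3A (0.160), SCN10A (0.0840) and SCN11A (0.240) were lower, beside 18.9%, with a median of -0.67 against -0.46 over all genes. Without library 3 the log2 ratios of SCN1A, SCN10A and SCN11A in the NTRK2 group moved from 1.35 to 2.33, from -3.57 to -4.43 and from -2.06 to -3.68, on few nuclei.

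In the IL31RA group SCN11A was higher (4.90, 4.63 to 5.19), beside 3.47% of genes, and SCN1A (0.217), SCN3A (0.134) and SCN8A (0.327) were lower, beside 16.6%. The TRPM8 group had 0 genes called higher, beside 1.86%, and SCN3A (0.445), SCN10A and SCN11A lower, beside 5.34%. The ADCYAP1 group had 0 higher, beside 3.45%, and SCN1A (0.332) and SCN2A (0.355) lower, beside 9.06%. In the GFRA2 group 0 were higher, beside 3.16%, and SCN3A (0.294) was lower, beside 6.95%. None of the 8 was called in either direction in the KIT group, where 4.24% of genes were higher and 11.2% lower. For SCN8A in the KIT group this depended on the processing. Its pooled ratio was 1.78, under the fold of 2, but within libraries the log2 ratio ran from 0.75 to 1.56, with a mean of 1.19. Of 17 alternatives in the processing, 11 left it uncalled, and its log2 ratio in them ran from -0.84 to 1.27. Medians of the 8 were 0.53, -0.15, -0.54, 0.42 and 0.04 in these 5 groups in turn, against -0.24, -0.11, -0.01, -0.07 and -0.15 over all genes.

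**Figure D3:**
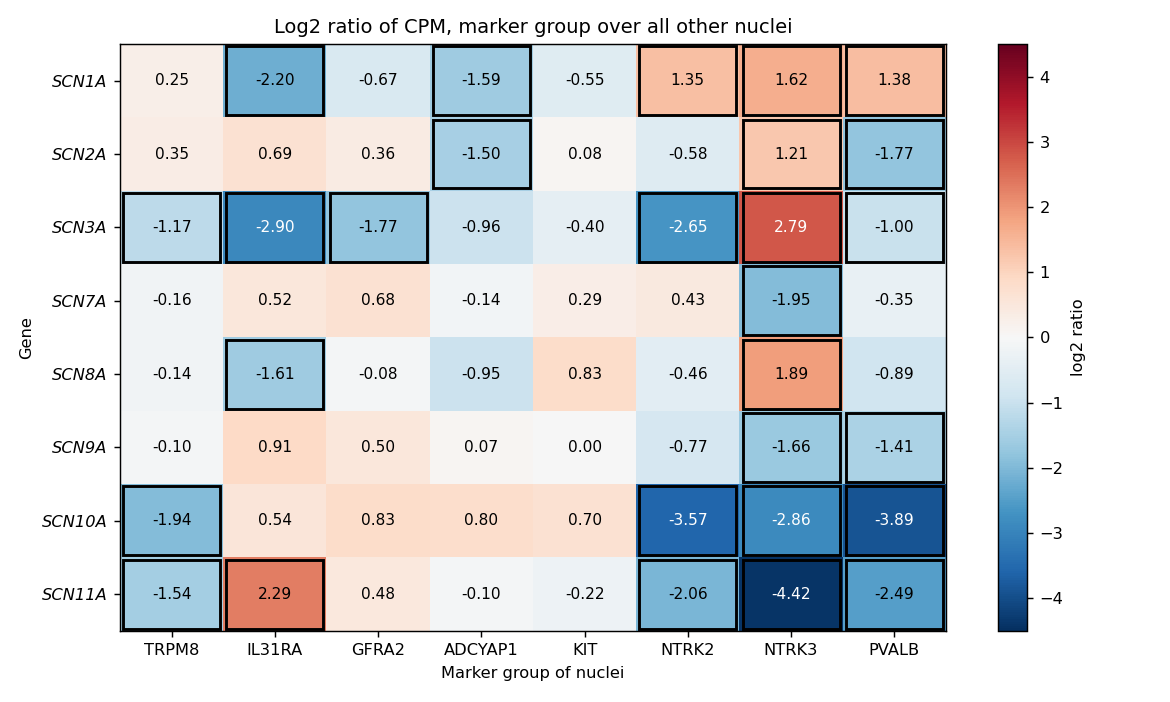
Log2 ratio of CPM in each marker group over all other nuclei for the 8 genes, as colour and as a number, with a black frame around the 28 called pairs. The NTRK3 column is framed throughout, with ratios up to 2.79 for SCN3A and down to -4.42 for SCN11A, and the KIT column has no frame.

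As a make-up of all alpha-subunit UMIs, SCN10A and SCN11A together took 43.4% (42.3 to 44.5) in the IL31RA group, 41.1% in the ADCYAP1 group, 35.7% in the GFRA2 group and 35.4% in the KIT group. They took 13.2% in the TRPM8 group, 7.92% in the PVALB group, 6.76% in the NTRK2 group and 5.52% in the NTRK3 group. By library these shares were 27.2% to 44.2% in the ADCYAP1 group and 21.3% to 43.8% in the GFRA2 group, whereas the TRPM8 group ran from 4.73% to 21.2% and nearly met the GFRA2 group in library 1. SCN8A took 32.03% in the NTRK3 group and 1.69% in the IL31RA group. SCN1A took 21.3% in the PVALB group, 16.6% in the NTRK3 group and 15.7% in the NTRK2 group, against 0.675% in the IL31RA group. These are shares of UMIs, not of channels, and transcript length and capture differ between the genes.

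All 8 genes summed to 3977 CPM in the IL31RA group, 3324 in the GFRA2 group, 2932 in the KIT group and 2452 in the ADCYAP1 group. The TRPM8, NTRK2 and NTRK3 groups held 1887, 1733 and 1684 CPM, and the PVALB group 1198 CPM.

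**Figure D4:**
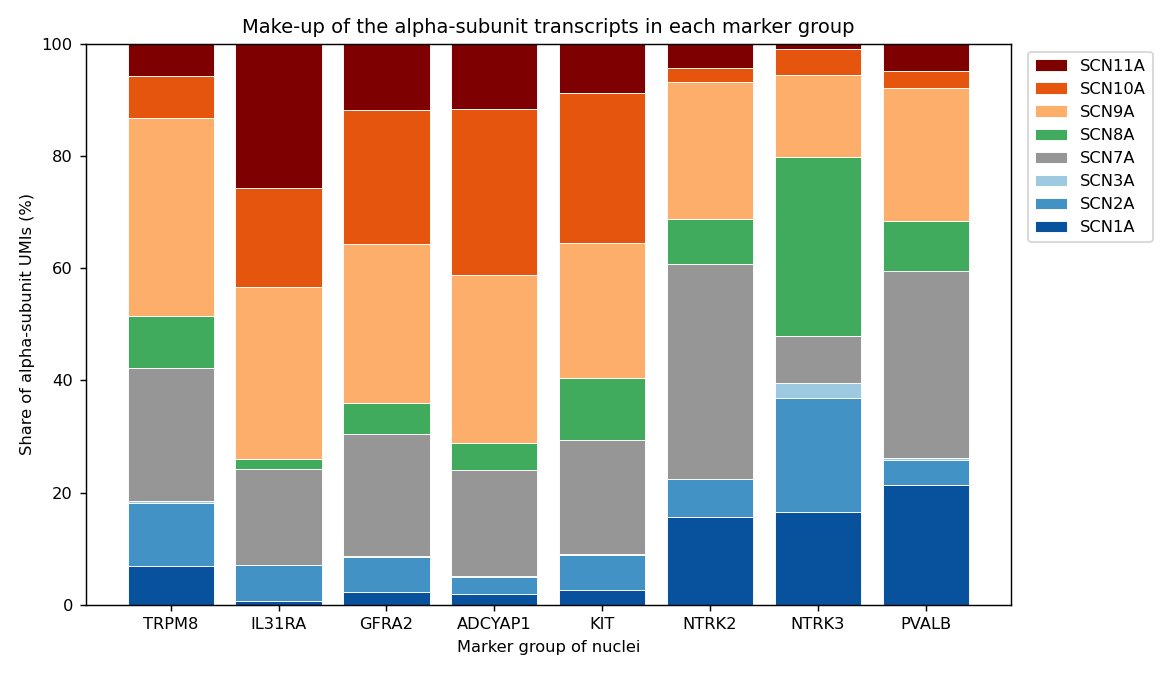
Share of the UMIs of the 8 alpha subunits (percent, stacked to 100) that each gene took in each marker group, all libraries pooled. SCN10A and SCN11A fill 35.4% to 43.4% of the bars of the IL31RA, GFRA2, ADCYAP1 and KIT groups and 5.52% to 13.2% of the others, and SCN8A fills 32.03% of the NTRK3 bar.

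In single nuclei, both resistant channels were detected in 160 of 191 IL31RA nuclei (83.8%), 185 of 234 GFRA2 nuclei (79.1%), 312 of 560 ADCYAP1 nuclei (55.7%) and 84 of 199 KIT nuclei (42.2%). The share was 13.1% in the TRPM8 group, 8.93% in the NTRK2 group, 6.22% in the PVALB group and 6.06% in the NTRK3 group. Median depth was 7219, 7969.5, 5374 and 3790 UMIs in the 4 high groups in that order. It was 4579 in the PVALB group, so the KIT group was shallower than the PVALB group. Because depths differed, nuclei were thinned to 1000 UMIs each, leaving out shallower ones.

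After thinning, SCN10A was detected in 44.4% of IL31RA, 44.6% of GFRA2, 42.5% of ADCYAP1 and 40.1% of KIT nuclei, so these 4 groups drew level. It was found in 17.5% of TRPM8 nuclei, 5.26% of NTRK2, 3.38% of PVALB and 2.74% of NTRK3 nuclei. SCN11A was detected in 58.8% of IL31RA nuclei, 30.7% of GFRA2, 18.2% of ADCYAP1 and 14.97% of KIT nuclei. The TRPM8 group, at 14.6% (11.13 to 18.6), overlapped the KIT group (10.2 to 20.9), and the NTRK2, PVALB and NTRK3 groups held 6.32%, 5.31% and 2.05%. Both together were seen in 25.1% of IL31RA nuclei, 15.6% of GFRA2, 7.72% of ADCYAP1 and 5.88% of KIT nuclei. They were seen in 0 of 95 NTRK2 nuclei and 0 of 146 NTRK3 nuclei. A nucleus showed on average 2.47 of the 8 genes in the IL31RA group, 2.25 in the GFRA2 group and 2.01 in the KIT group, and 0.99 in the PVALB group.

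Co-detection was then compared with the number of nuclei that the product of the 2 genes' shares gives. For SCN10A and SCN11A, 150 nuclei of 1934 carried both within groups and libraries, against 149.1 from the product, a ratio of 1.006 (0.86 to 1.17). When the marker groups of a library were joined, the ratio was 1.30 (1.11 to 1.51). The pair SCN1A and SCN10A gave 0.525 (0.360 to 0.739) with groups joined and 0.777 within groups. SCN1A with SCN11A and SCN8A with SCN11A were also under the product with groups joined, at 0.671 and 0.681. Over the 21 pairs with at least 20 nuclei from the product, 5 lay above 1 and 3 below 1 with groups joined, and 0 of 21 did so within groups, where the ratios ran from 0.777 to 1.27 with a median of 1.02. No departure within groups was detectable at 1000 UMIs, or at 2000 UMIs, and pairs with wide intervals could hide one.

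**Figure D5:**
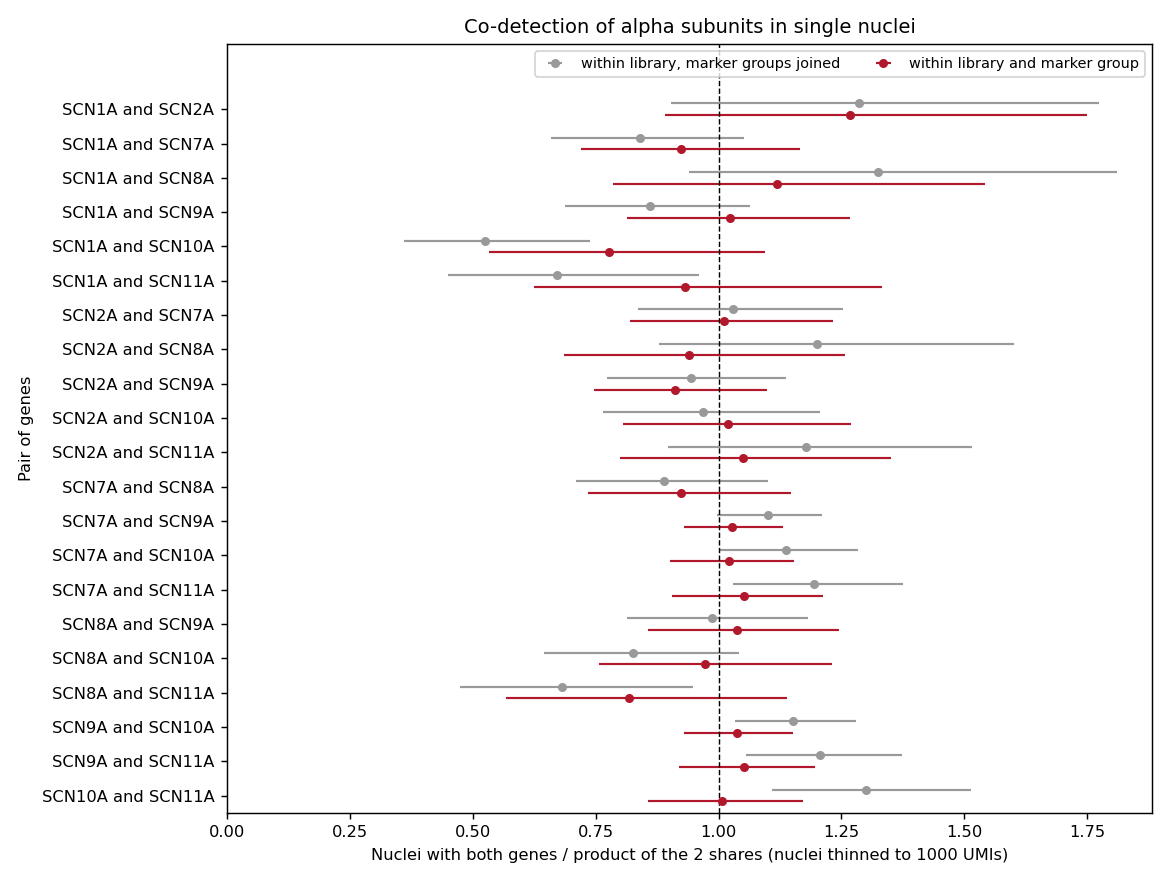
Nuclei that carry both genes of a pair, divided by the number that the product of the 2 shares gives, for 21 pairs in nuclei thinned to 1000 UMIs. Bars are exact 95% binomial (Clopper-Pearson) intervals and the dashed line marks 1. Grey points join the marker groups of a library and run from 0.525 to 1.32, and red points stay within library and group, where every interval includes 1.

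The genes most like each channel were taken over 26 strata, each a marker group within a library, by Pearson's r of log2 CPM among 8566 genes. The strata share libraries and depth, so r is given as a description. For SCN10A the nearest were PDE4C, a cAMP phosphodiesterase (0.907), SRGAP1 (0.876) and EML6 (0.864), and for SCN11A they were NRCAM, a cell adhesion molecule of axons (0.894), CLDN10 (0.890) and PPEF1 (0.870). PPEF1 (0.886) and OSBPL3 (0.867) were among the 3 nearest to SCN9A. SCN8A was followed most closely by GRIK4, a kainate receptor subunit (0.910), MCF2L (0.903) and ADARB2 (0.898), and SCN2A by GRIA2, an AMPA receptor subunit (0.867), and the potassium channels KCNH7 (0.833) and KCNH8 (0.818). SCN1A was nearest to TRIM37 (0.868), LPGAT1 (0.861) and SLC22A23 (0.857), and SCN7A to CDS2 (0.889), CAMK2D (0.870) and NBL1 (0.833). Among the 8 themselves the closest pair was SCN10A and SCN11A, with r of 0.892, and the most opposed was SCN1A and SCN11A, with r of -0.779.

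Partners of the channels were read from a list of 29 genes, of which 26 had a row and 23 had enough UMIs. Of their 184 gene and group pairs, 15 were called higher and 39 lower. In the order TRPM8, IL31RA, GFRA2, ADCYAP1, KIT, NTRK2, NTRK3 and PVALB, the genes called higher numbered 2, 1, 2, 0, 2, 2, 3 and 3, and those called lower 1, 8, 1, 3, 4, 7, 4 and 11. These stand beside the shares of all genes given above for each group.

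FGF12, an intracellular FGF that binds the channel tail, was the highest called partner in the GFRA2 group at 4966 CPM, with a ratio to all other nuclei of 5.00, and its relative FGF14 was the lowest called partner in the PVALB group at 102 CPM (0.0791).

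S100A10, which helps bring Nav1.8 to the membrane, was the lowest called partner in the NTRK3 group at 64.1 CPM (0.130) and in the KIT group at 101 CPM (0.213). Both log2 ratios were nearer to 0 within libraries: the mean log2 ratio was -0.97 in the NTRK3 group, against -2.95 pooled, and -1.18 in the KIT group, against -2.23 pooled. The NTRK3 direction held in 3 of 4 libraries, with 0.42 in the other, and the KIT direction in 4 of 4. The PVALB group, mostly from library 1, held 3006 S100A10 UMIs, at 1864 CPM. The sodium pump subunit ATP1B1 was the highest called partner in the NTRK2 group at 1196 CPM (2.93). ANK3, the ankyrin that anchors channels at initial segments and nodes, was the lowest in the NTRK2 group at 759 CPM (0.277). The adhesion molecule NRCAM led in the IL31RA group at 1015 CPM (2.29), and PRKCE, a kinase that acts on sodium channels, was the lowest in the TRPM8 group at 428 CPM (0.356).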

How the data were processed

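The authors deposited 1 table of raw UMI counts, 30477 genes by 2189 nuclei, not normalized. It was made from nuclear RNA with the 10x Next GEM 3' chemistry, version 3.1, per the labels' protocols. The tools and build, per the submitters' processing notes, are Cell Ranger 6.0.1, Seurat and Sscrofa11.1, with no roles stated. The filter on nuclei, the treatment of doublets and the strand setting are not given in the sources used here, and no nucleus held fewer than 501 UMIs. All columns were used. An Ensembl identifier stood in place of a symbol in 14012 rows, and 773 of these could be given one. Depth is given per library in the report.

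With scanpy 1.11.5, each nucleus was scaled to 10000 counts and logged. The 2000 most variable genes, less the 8 members and the partner list (1995 remained), gave 30 principal components, 15 neighbours and, at Leiden resolution 1.0, 23 clusters. Libraries were not integrated, and many clusters came from mostly 1 library. A cluster joined the marker with the highest mean within-library log2 ratio of CPM plus 10, from a score of 1. UMIs were summed per group. Poisson, conditional binomial and Clopper-Pearson intervals came from scipy 1.17.1. Calls needed 50 UMIs. Library values needed 10 nuclei. The code was tested on simulated data.

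Nuclei are not replicates, so no p-value was computed. The members, markers and lists were chosen with earlier results of these data known. All 8 members are named. Of the partner list the highest and lowest called gene in each group are named, some items being not reported here, and for each member with at least 200 UMIs the 3 genes with the highest r over groups within libraries of at least 20 nuclei and 50000 UMIs. The shared-library orders, the joint share of SCN10A and SCN11A, the co-detection with groups joined, the cluster values and the levels without deep nuclei or mitochondrial UMIs were added after the data had been seen. Alternatives varied the clustering, grouping, weighting, depth, libraries and fold, with their effect given in the closing section.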

Additional observations from a re-analysis of the deposited data

Results flagged for a closer look

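Over the libraries of a group, 7 of 42 gene and group pairs had a library standing apart from the others by more than Dixon's 95% limit for its distance to the nearest value. Chance flags about 1 in 20. The libraries are technical batches, not samples of a group.

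Library 1 was high in 4 of them. SCN11A in the TRPM8 group stood at 226 CPM there, against 32.4 to 57.03 CPM in the others. SCN7A stood at 749 CPM in the ADCYAP1 group, against 371 to 461 CPM, at 837 CPM in the IL31RA group, against 493 to 515 CPM, and at 644 CPM in the TRPM8 group, against 319 to 364 CPM. Library 3 was low for SCN9A in the IL31RA group at 694 CPM, against 1269 to 1355 CPM, and in the KIT group at 553 CPM, against 895 to 939.6 CPM. SCN1A in the TRPM8 group stood at 104 CPM in library 6, against 143 to 149.9 CPM. The limit was applied to CPM with mitochondrial UMIs in the total and not to CPM without them. With those UMIs left out, SCN7A in the IL31RA group was 874 CPM in library 1, against 493 to 810 CPM. SCN9A in the IL31RA group was 1092 CPM in library 3, against 1270 to 1384 CPM. In the TRPM8 group SCN1A ran from 104 to 212 CPM, and SCN11A was 236 CPM in library 1, against 34.5 to 57.1 CPM. How many flags would remain was not counted.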

How the results depend on the processing

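Of the 28 called pairs of gene and group, 21 kept their call in every alternative that gave a value, and 465 of 466 alternative values kept the direction. The exception was SCN3A in the TRPM8 group, with a log2 ratio of 1.05 at Leiden resolution 0.5 against -1.17. Of the 7 pairs called higher, the count became 14 at a fold of 1.5 and 4 at a fold of 3. Otherwise it ran from 5 to 9, and from 7 to 8 without each library in turn. The 21 called lower became 17 to 26, and 18 to 22 without each library, and 20 without the shallow cluster of the TRPM8 group, an alternative chosen after seeing the data.

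The pairs that lost their call somewhere were SCN3A in the TRPM8, NTRK2 and PVALB groups, SCN11A in the TRPM8 group, SCN1A in the NTRK2 group, SCN2A in the NTRK3 group and SCN7A in the NTRK3 group. With groups set per nucleus, the log2 ratio was 0.94 for SCN1A in the NTRK2 group, 0.40 for SCN2A and -0.98 for SCN7A in the NTRK3 group, and the cause was not tested. Without library 1, 3, 4 or 6 in turn SCN3A lost its call in the TRPM8 group, at -1.15, -0.80, -1.02 and -1.04. It was lost in the PVALB group without library 1, 4 or 6, at -0.30, -0.76 and -0.93, and in the NTRK2 group without library 6, at -2.41. Leaving out a library kept the groups as they were, with no new clustering. In 4 alternatives the group had 0 UMIs and in 8 the gene was under the UMI minimum, so these gave no value.

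The co-detection ratio of SCN10A and SCN11A was 1.006, and 1.06 at 2000 UMIs, 1.007 within clusters and 0.989 to 1.05 without each library. No paired analysis was possible because the table is 1 pooled sample and ties no nucleus to a pig. Depth limits SCN3A, with 184 UMIs, and the pairs of rare genes in single nuclei.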
